A study of Rattus norvegicus with 12 samples.

Results

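The enzymes that make nitric oxide from arginine, and those that compete for arginine, remove its inhibitors or respond to nitric oxide, were followed in the rat colon through 10 genes. These are the synthases Nos1, Nos2 and Nos3, the arginases Arg1 and Arg2, the citrulline-recycling enzyme Ass1, the methylarginine hydrolases Ddah1 and Ddah2, and the soluble guanylate cyclase subunits Gucy1a3 and Gucy1b3 (Gucy1a1 and Gucy1b1 in current RefSeq). All probes carrying one of these gene names were taken, 14 of the 30367 probes on the array, which carry 26514 gene names. The colon of male Wistar rats was profiled on 1-colour Agilent arrays, 1 rat per array. Group C (rats C1 to C4) was normally handled and gavaged with placebo. Group M (rats M5 to M8) underwent neonatal maternal separation (NMS), in which pups were kept from the dam for 180 min a day between postnatal days 2 and 14, and received placebo. Group D (rats D9 to D12) underwent NMS and was gavaged with VSL#3, a mixture of probiotic bacteria, in 100 µl saline daily between days 3 and 60. All 3 groups had colorectal distension, and tissue was taken at day 60. Per the study's methods, the piece of colon lay near the anus and at a matching position in every rat. The litters of the rats and the layers of the colon wall are not given in the sources used here.

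Nitric oxide synthases oxidise arginine to nitric oxide and citrulline, with tetrahydrobiopterin as a cofactor. The neuronal form Nos1 is known for inhibitory signalling by enteric neurons, the inducible form Nos2 for inflamed mucosa and activated macrophages, and the endothelial form Nos3 for the vessel wall. Nitric oxide binds soluble guanylate cyclase, a dimer of an alpha and a beta subunit, and the cyclic GMP it makes relaxes smooth muscle. Arginases split the same arginine to ornithine and urea, and Ddah1 and Ddah2 break down the methylarginines that inhibit the synthases.

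The probes are 60 bases long. Those below are shown because the results on Nos3, Nos1 and Ass1, and those of the second Gucy1b3 probe, rest on what they bind. The Nos2 probe and the main Gucy1b3 probe are not shown. They are written 5′ to 3′ in lower case throughout, since no shorter stretch was singled out, with the rn4 position given by the array files. The Nos3 probe lies at chr4:6159286-6159345 on the minus strand, the Nos1 probes at chr12:39815023-39815082 and chr12:39810923-39810982 on the minus strand, and the second Gucy1b3 probe at chr2:173685920-173685979 on the minus strand. The Ass1 probe covers chr3:10620727-10622079 on the plus strand, a genomic span of 1353 bases for 60 probe bases, so its bases are not contiguous in the genome.
Nos3 A_44_P198620: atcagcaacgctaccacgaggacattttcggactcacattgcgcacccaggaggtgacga
Nos1 A_64_P105620: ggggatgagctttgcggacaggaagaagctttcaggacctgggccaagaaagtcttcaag
Nos1 A_44_P473047: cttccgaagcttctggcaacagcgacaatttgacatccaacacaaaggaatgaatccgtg
Gucy1b3 A_64_P126685: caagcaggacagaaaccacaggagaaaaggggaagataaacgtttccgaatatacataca
Ass1 A_44_P447373: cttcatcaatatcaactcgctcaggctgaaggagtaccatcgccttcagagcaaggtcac

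Values are log2 signal relative to the 75th percentile of the same array, so 0 is the level of that percentile and each unit is a 2-fold step. An error after a difference between groups is its SE from limma. The 75th percentile lay between 1434 and 1953 signal units, and 75.5% to 77.5% of spots were well above background on each array. The comparisons use C1 to C4, M5 to M8 and D9 to D11, the 11 arrays that the study's methods analysed. Values with D12, a VSL#3-treated rat, are given beside them. Groups C and M shared 1 slide and 1 scan, and Group D had another, so slide and group cannot be told apart for Group D. On the shared slide Group C lay in row 1 and Group M in row 2, and Group D lay in row 1 of its slide. Row and group therefore cannot be told apart for Group M. The colonic label was borne out by all 9 epithelial markers, led by Krt19, which were well above background on every array. The immune markers differed between rats of the same group. The summed signal of 5 T cell genes, led by Cd3d, was between 2.80 and 8.90 times the 75th percentile in C2, M5, M7, M8 and D12 and between 0.612 and 1.13 in the other 7 rats. The 8 macrophage and monocyte markers, led by Lyz2, summed to 43.2 to 62.1 in the same 5 rats and to 17.7 to 20.9 in the others. The kidney markers summed to at most 0.112, with Aqp2 highest, Slc12a1 well above background on 11 arrays and Nphs1 on 4. Rat M6 therefore stood apart from the other rats of Group M, C2 from the other rats of Group C, and D12 from the other rats of Group D.

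**Figure D1:**
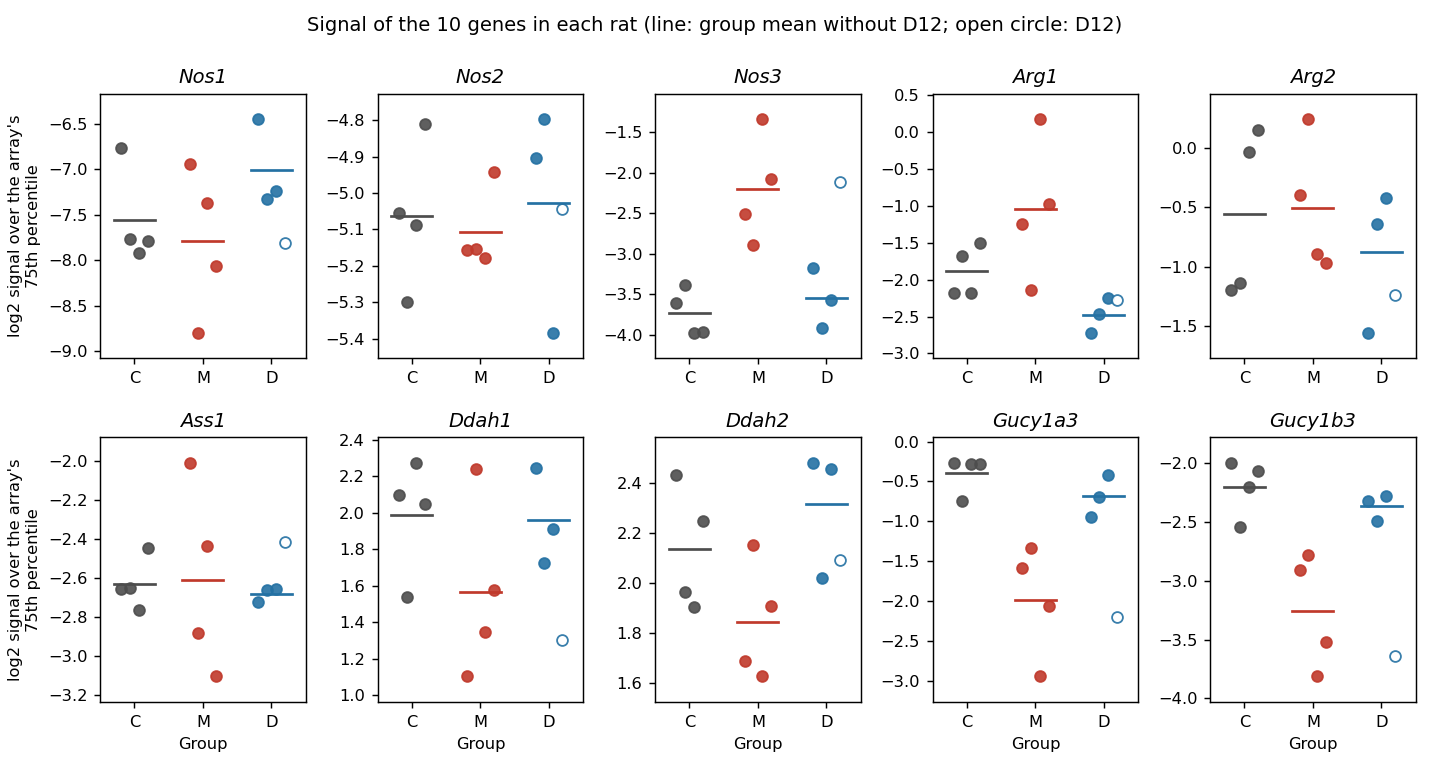
Log2 signal relative to the array's 75th percentile (vertical axis, a separate range for each gene) of the 10 genes in Groups C, M and D, 1 point a rat, with lines at the group means without D12 and an open circle for D12. Nos3 lies higher and Gucy1a3 and Gucy1b3 lie lower in all 4 rats of Group M than in all 4 of Group C, and D12 lies among the Group M rats for these 3 genes and among the Group D rats for Arg1.

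Comparing NMS with normal handling (Group M vs Group C), Nos3 was higher and both guanylate cyclase subunits were lower in Group M, each without overlap between the groups, and for Nos2, Arg2 and Ass1 the means of the groups lay within 0.05 log2 units of each other. No gene of the 10 passed the adjusted test (limma, adjusted p of at most 0.05 over all probes), which 0.204% of all probes passed. An unadjusted p of at most 0.05 was reached by 3 of the 10 genes, 1 higher and 2 lower, against 22.7% of all probes, and 3 of the 10 did not overlap between groups, against 9.22% of all probes. Among the probes well above background on all 12 arrays these shares were 28.7% and 11.9%. The methods' criterion was met by Nos3, Gucy1a3 and Gucy1b3, against 2.31% of all probes. By their second probes, Gucy1b3 met it and Gucy1a3 did not. The adjusted call depended on rat M6: without it, Nos3, Arg1, Gucy1a3 and Gucy1b3 passed the adjusted test, as did 16.2% of all probes.

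Comparing VSL#3 with placebo after NMS (Group D vs Group M), Nos3 and Arg1 were lower and Gucy1a3, Gucy1b3 and Ddah2 were higher in Group D. None of the 10 passed the adjusted test, which 0.171% of all probes passed. An unadjusted p of at most 0.05 was reached by these 5 genes, against 21.6% of all probes, and all of them except Ddah2 did not overlap between groups, against 15.8% of all probes. With D12, 4 of the 10 reached that level, against 12.2% of all probes, Gucy1b3 no longer doing so, and Arg1 alone did not overlap, against 5% of all probes. The methods' criterion was met by Nos3, Arg1 and Gucy1a3, against 2.66% of all probes. By their second probes, Gucy1b3 met it and Gucy1a3 did not. Without M6 the same 4 genes as above passed the adjusted test, as did 14.8% of all probes. Both comparisons rest on the same 4 rats of Group M, so opposite signs in them are not independent.

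Against control rats (Group D vs Group C), no gene in VSL#3-treated rats reached an unadjusted p of 0.05, against 5.97% of all probes, or the adjusted test, passed by 0.00659% of all probes. Arg1 alone did not overlap between the groups, against 7.56% of all probes. No gene met the methods' criterion, against 0.369% of all probes.

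**Figure D2:**
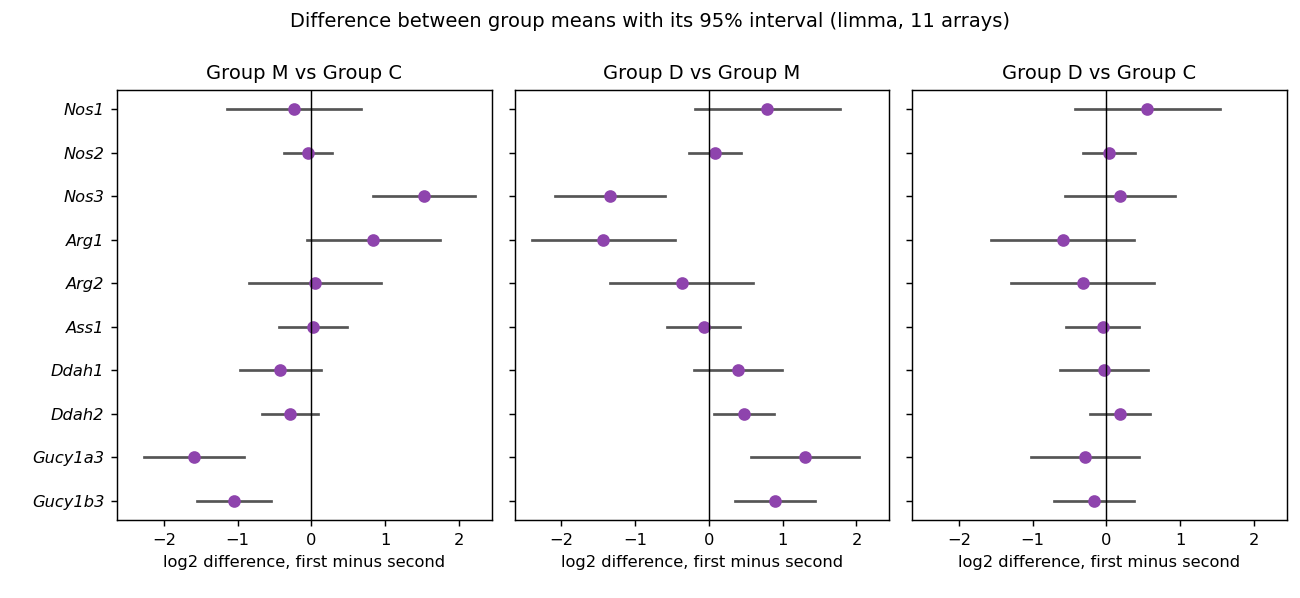
Log2 difference between group means (horizontal axis, first group minus second) for each of the 10 genes in the 3 comparisons, with points for the difference and bars for its 95% interval from limma on 11 arrays. The intervals of Nos3, Gucy1a3 and Gucy1b3 exclude 0 in the first panel and, with those of Arg1 and Ddah2, in the second, and all 10 intervals include 0 in the third.

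Of the 3 synthases, Nos3 had the largest difference between Groups M and C and the only one without overlap. It read -3.60, -3.39, -3.97 and -3.96 in C1 to C4 and -2.51, -2.89, -1.34 and -2.08 in M5 to M8. Every rat of Group M was thus above every rat of Group C, with M7 highest and M6 lowest in its group. The Group M mean exceeded the Group C mean by 1.53 ± 0.31 (SE), a 2.88-fold difference, with a limma adjusted p of 0.0867. Without M6 the difference was 1.76 with an adjusted p of 0.0110. Nos3 is among the genes that the study chose from these same rats, so its direction is not independent evidence.

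In VSL#3-treated rats Nos3 read -3.17, -3.91 and -3.57 in D9, D10 and D11 and -2.11 in D12. The first 3 lay below all of Group M, and D12 lay within Group M. Group D minus Group M was -1.35 ± 0.34 for D9 to D11 (limma adjusted p = 0.0932), a 2.54-fold difference. With D12 in the fit the difference was -0.99 (adjusted p = 0.365). Group D differed from Group C by 0.18, with a 95% interval from -0.57 to 0.93, and by 0.54 with D12.

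The summed level of the endothelial markers, from the cells for which Nos3 is named, overlapped between the groups. All 9 were well above background on every array, Kdr having the highest signal. The sum was 5.28 to 6.41 in Group C, 5.09 to 5.90 in Group M and 4.75 to 5.46 in D9 to D11. Single markers, named here after their values were seen, did separate groups. Emcn was at -0.40 ± 0.12 in Group M vs Group C (limma unadjusted p = 0.00948), the 1 marker of 9 at a p of at most 0.05, against 28.7%. It was also the 1 marker without overlap, against 11.9%. Tek was at -0.43 ± 0.18 in Group D vs Group M, where 1 marker of 9 reached that level, against 26.6%. In Group D vs Group C, 8 of the 9 were lower. Tie1 and Tek reached an unadjusted p of at most 0.05, against 6.27%, and Tie1 (-0.46) and Cldn5 (-0.60) did not overlap, against 8.99%.

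The macrophage and T cell sums were high in M5, M7, M8 and D12, which had the highest Nos3 values. They were also high in C2, where Nos3 read -3.39, the highest of Group C. They were low in M6, where Nos3 read -2.89, the lowest of Group M. In Group M vs Group C, 6 of the 8 macrophage markers were higher and 2 lower. Of the 8, 3 reached an unadjusted p of at most 0.05, all higher. Between Groups D and M, 6 of the 8 did so, all lower in Group D, with a list median of -0.60. Among probes well above background on all 12 arrays these shares were 28.7% and 26.6%. Cd68, Aif1 and Mrc1, named after their values were seen, did not overlap between Groups D and M, against 19.8% of such probes. Neither did the macrophage sum, but only by a small margin, from 20.81 in D10 to 20.91 in M6. On average, 7 of the 8 macrophage markers lay lower in D9 to D11 than in Group M and 1 lay higher. Nos3 and Arg1 were lower too, and the part of these markers in the differences was not tested. In bulk tissue, a change in the number of cells of a type and a change in RNA per cell cannot be told apart.

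Nos2 stayed within a narrow band. It read -5.05, -5.30, -5.09 and -4.81 in C1 to C4, -5.16, -5.15, -5.18 and -4.94 in M5 to M8, and -4.90, -4.80, -5.38 and -5.04 in D9 to D12. The signal was well above background on all 12 arrays, and the groups overlapped in every comparison. The Group M minus Group C difference was -0.04, with a 95% interval from -0.37 to 0.28, and the Group D minus Group M difference was 0.08, from -0.28 to 0.44. The macrophage sum, in which Lyz2 has the highest signal, ran from 17.7 to 62.1 between rats. Nos2 ranged over 0.59 log2 units, a measure of another kind than the sum, and the part of macrophages in its level was not tested.

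Nos1 was near the limit of detection. The probe of higher signal read -6.76, -7.77, -7.92 and -7.79 in C1 to C4, -6.94, -8.80, -7.37 and -8.07 in M5 to M8, and -6.45, -7.33, -7.23 and -7.81 in D9 to D12. It was well above background in D9 only, and the other probe on no array, with values from -8.61 to -7.49. With 1 detected reading among 12 rats, no fold between groups is given. Of 9 enteric neuron markers, 8 were well above background on every array, with Vip highest and Syt1 well above on 11 of 12. Their sum was 4.71 to 5.69 in Group C, 4.87 to 7.09 in Group M and 5.56 to 5.83 in D9 to D11.

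Arg1, the cytosolic arginase of liver and of some macrophages, varied most among the rats of Group M. It read -2.18, -1.68, -2.18 and -1.50 in C1 to C4, -1.25, -2.15, 0.18 and -0.97 in M5 to M8, and -2.72, -2.47, -2.25 and -2.27 in D9 to D12. M6 lay among the Group C rats, and all 4 rats given VSL#3, D12 included, lay below every rat of both other groups. Group M minus Group C was 0.84 ± 0.40 (adjusted p = 0.250), and Group D minus Group M was -1.43 ± 0.44 (adjusted p = 0.123), a 2.70-fold difference that was -1.38 with D12. Group D minus Group C was -0.60, with a 95% interval from -1.57 to 0.38.

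The difference between Groups M and C in Arg1 leaned on M7 and M6. It was 0.43 without M7 and 1.20 without M6 (adjusted p = 0.0380). Of 4 liver markers, Alb and Ttr were not well above background on any array, and the sum, led by Tf, was 8.39 to 12.5 in Group C and 8.03 to 10.46 in Group M. The neutrophil sum (S100a9 highest, Csf3r well above background on 3 arrays, Mpo on 11) was 3.59 in M7 and at most 0.547 in every other rat. Arg1 had its highest value in M7. In D12 the macrophage sum was 45.7 and Arg1 read -2.27.

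Arg2, the mitochondrial arginase, read -1.20, -1.14, -0.03 and 0.15 in C1 to C4, -0.40, 0.24, -0.90 and -0.97 in M5 to M8, and -1.56, -0.64, -0.42 and -1.24 in D9 to D12. The spread within Groups C and M was wider than any difference between means. Group M minus Group C was 0.05, with a 95% interval from -0.85 to 0.94, and Group D minus Group M was -0.37, from -1.34 to 0.60.

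Ass1, which condenses citrulline with aspartate on the way back to arginine, was the steadiest of the arginine enzymes in Groups C and D. It read -2.66, -2.65, -2.77 and -2.45 in C1 to C4 and -2.72, -2.66, -2.66 and -2.42 in D9 to D12, and it spread from -3.11 to -2.01 in Group M. The Group M minus Group C difference was 0.02, with a 95% interval from -0.44 to 0.48.

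Nos2 and Arg1 use the same substrate, and their within-array difference removes any shared scaling. Nos2 minus Arg1 was -3.18 ± 0.35 (SD, n = 4) in Group C, -4.06 ± 0.97 (SD, n = 4) in Group M and -2.55 ± 0.51 (SD, n = 3) in D9 to D11. These are differences between probes, not a ratio of the 2 transcripts. Group D minus Group M was 1.51, with an exact permutation p of 0.0857, where the smallest p that 4 against 3 rats allow is 0.0571. The Group M minus Group C value was -0.88 (exact permutation p = 0.114). Over the 6 comparisons of this kind, the lowest Benjamini-Hochberg value was 0.171.

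The methylarginine hydrolases differed less. Ddah1 read 2.10, 1.54, 2.27 and 2.05 in C1 to C4, 1.103, 2.24, 1.35 and 1.58 in M5 to M8, and 2.24, 1.72, 1.91 and 1.30 in D9 to D12. Its 4 lowest readings were in M5, D12, M7 and C2, 4 of the 5 rats with high T cell markers. Group M minus Group C was -0.42 ± 0.25 (adjusted p = 0.341). The second Ddah1 probe gave -0.04, with a 95% interval from -0.41 to 0.34, and the 2 probes did not show the same pattern.

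Ddah2 read 2.43, 1.96, 1.90 and 2.25 in C1 to C4, 1.69, 2.15, 1.63 and 1.91 in M5 to M8, and 2.48, 2.02, 2.46 and 2.09 in D9 to D12. The groups overlapped. Group D minus Group M was 0.47 ± 0.18 (unadjusted p = 0.0268, adjusted p = 0.176), a 1.39-fold difference, and 0.42 with D12. Group M minus Group C was -0.29, with a 95% interval from -0.67 to 0.08.

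Both subunits of the nitric oxide receptor, soluble guanylate cyclase, were lower in Group M. Gucy1a3 read -0.27, -0.74, -0.29 and -0.29 in C1 to C4 and -1.58, -1.34, -2.95 and -2.07 in M5 to M8. Every rat of Group M lay below every rat of Group C, with M7 lowest. The difference was -1.59 ± 0.31 (limma adjusted p = 0.0834), which is 3.01-fold. On the shared slide, where Groups C and M lay in separate rows, the adjusted p was 0.166 with these 2 groups alone in the model. Without M6 the difference was -1.80 with an adjusted p of 0.0108.

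In VSL#3-treated rats Gucy1a3 read -0.94, -0.69 and -0.42 in D9 to D11 and -2.20 in D12. D9 to D11 lay above all of Group M and D12 lay within it. Group D minus Group M was 1.30 ± 0.33 (adjusted p = 0.0958) without D12 and 0.92 (adjusted p = 0.400) with it. The second Gucy1a3 probe showed the same signs with smaller differences. It differed by -0.53 ± 0.15 between Groups M and C (adjusted p = 0.113, no overlap) and by 0.40 ± 0.16 between Groups D and M (adjusted p = 0.192, overlapping).

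Gucy1b3, the beta subunit, read -2.00, -2.54, -2.20 and -2.07 in C1 to C4 and -2.91, -2.78, -3.81 and -3.52 in M5 to M8. In D9 to D12 it read -2.32, -2.49, -2.28 and -3.64. The order of the rats within Group M was M7, M8, M5, M6 from lowest to highest, as for Gucy1a3, and D12 again lay with Group M. For this probe, Group M minus Group C was -1.05 ± 0.23 (adjusted p = 0.0895), a 2.08-fold difference. Group D minus Group M was 0.89 ± 0.24 (adjusted p = 0.104) and 0.57 with D12.

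The second Gucy1b3 probe, whose sequence is given above, lies in another part of the transcript and showed differences of like size. It read -4.97, -5.14, -4.83 and -4.96 in C1 to C4, -5.49, -5.52, -6.93 and -6.29 in M5 to M8 and -4.97, -4.93, -4.59 and -6.35 in D9 to D12. Group M minus Group C was -1.08 ± 0.29 (adjusted p = 0.106) and Group D minus Group M was 1.22 ± 0.31 (adjusted p = 0.0954). The main probes of Gucy1a3 and Gucy1b3 lie 71.6 kb apart on chromosome 2 of rn4, on the same strand.

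The within-array difference Gucy1a3 minus Gucy1b3 was 1.81 ± 0.08 (SD, n = 4) in Group C, 1.27 ± 0.28 (SD, n = 4) in Group M and 1.68 ± 0.26 (SD, n = 3) in D9 to D11. It was smaller in Group M than in Group C, by a difference of -0.54 (exact permutation p = 0.0286, the smallest that 4 against 4 rats allow; Benjamini-Hochberg value 0.171 over 6 comparisons). The main alpha probe thus differed by more than the main beta probe, and the second alpha probe, at -0.53, by less than either beta probe. Group D minus Group M was 0.41 (exact permutation p = 0.143).

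The smooth muscle markers, from cells in which this cyclase is known to act, pointed both ways. All 8 were well above background on every array, led by Actg2. They summed to 162 to 210 in Group C, 165 to 236 in Group M and 179 to 230 in D9 to D11. The single markers that follow were named after their values were seen. In Group M vs Group C, Des alone of the 8 reached an unadjusted p of at most 0.05, at 0.51 ± 0.20. Acta2 was at 0.46 ± 0.23, Lmod1 at -0.40 ± 0.19 and Smtn at -0.26 ± 0.17. Between Groups D and M, Lmod1 (0.70 ± 0.20) and Smtn (0.57 ± 0.19) reached that level without overlap, as the subunits did. Des was at -0.49 and Acta2 at -0.47. Among probes well above background on all 12 arrays, 28.7% and 26.6% reached that level in these comparisons, and 19.8% did not overlap between Groups D and M. With D12, Lmod1 was at 0.50 and Smtn at 0.43, and neither reached it.

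The 2 markers of interstitial cells of Cajal, Kit and Ano1 (the pacemaker cells of gut muscle), summed to 8.71 to 13.9 in Group C, 5.43 to 10.51 in Group M and 11.4 to 12.7 in D9 to D11. In D12 they summed to 5.28. Ano1 had a mean log2 signal of 3.17 and Kit one of -3.08, so this sum is nearly all Ano1 and does not show Kit. The 4 lowest sums were in D12, M7, M5 and M8, as were the 4 lowest values of Gucy1a3 and of Gucy1b3. These 4 rats also had high T cell and macrophage sums, as did C2. C2 was lowest in Group C for the Cajal cell sum (8.71), Gucy1a3 (-0.74) and Gucy1b3 (-2.54). M6, low in the T cell and macrophage sums, was highest in Group M for each of these. The part of any of these cells in the differences was not tested.

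**Figure D3:**
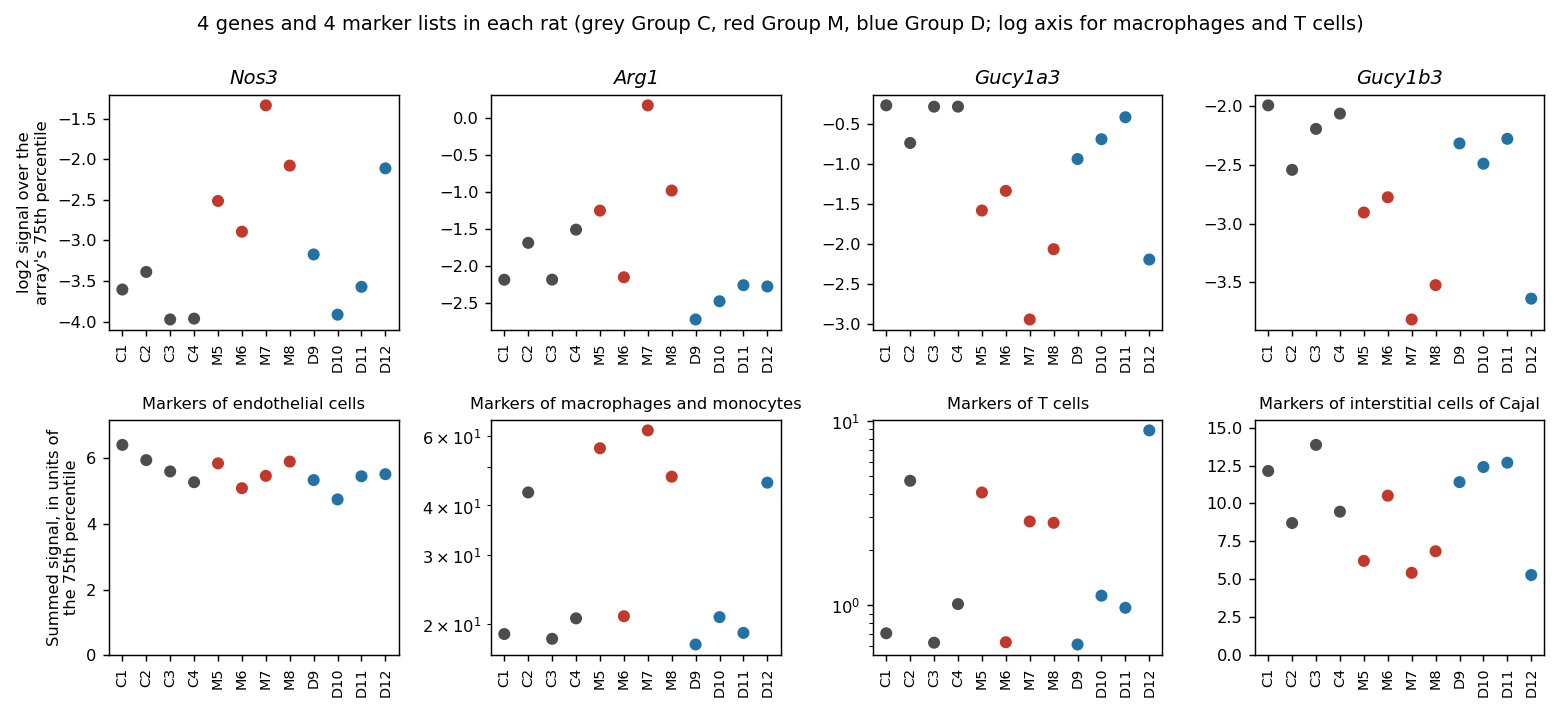
Upper row: log2 signal of Nos3, Arg1, Gucy1a3 and Gucy1b3 in each rat, relative to the array's 75th percentile. Lower row: summed signal of the markers of endothelial cells, macrophages and monocytes, T cells and interstitial cells of Cajal, in units of that percentile (log axis for macrophages and T cells), with Group C grey, Group M red and Group D blue. The T cell and macrophage sums are high in C2, M5, M7, M8 and D12 and low in M6. Nos3 in M6 is above and Gucy1a3 in M6 is below every rat of Group C. Within the groups, Nos3 is highest in C2 and D12 and lowest in M6, and Gucy1a3 is lowest in C2 and D12 and highest in M6.

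The other genes of the pathway were read from 8 lists. Of 60 measured genes, none passed the adjusted test in any of the 3 comparisons. In Group M vs Group C, 28 reached an unadjusted p of at most 0.05, 13 higher and 15 lower, against 10% of all probes higher and 12.6% lower. The median difference was -0.01, as over all probes. In Group D vs Group M the count was 17, 12 higher and 5 lower, against 11.3% and 10.3% of all probes. In Group D vs Group C it was 5, against 5.97% of all probes. Among probes well above background on all 12 arrays, 28.7%, 26.6% and 6.27% reached that level in the 3 comparisons in turn. All but 7 of the 60 genes lay well above background in all 12 rats.

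Of 6 arginine transport genes, 4 reached an unadjusted p of at most 0.05 in Group M vs Group C, all higher, with a list median of 0.45. Here and in the lists that follow, the share of all probes at that level was 22.7%, and 28.7% among those well above background on all 12 arrays. Slc7a1, the main carrier of cationic amino acids, had the largest difference, 1.27 ± 0.29 (adjusted p = 0.0935), without overlap. Slc7a7 had a difference of -0.07. Of 5 genes of the urea cycle and citrulline supply, 2 reached that level, both lower, including a gene well above background on 9 of the 12 arrays. Nags, which makes the activator of the first urea cycle enzyme, differed by -0.46 ± 0.11 (adjusted p = 0.0998, no overlap), and Asl, which releases arginine from argininosuccinate, had a difference of -0.08.

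Of 7 tetrahydrobiopterin genes, 4 reached the unadjusted level. Gchfr, the feedback regulator of the first enzyme of the route, differed by -0.80 ± 0.24 (adjusted p = 0.118). Of 8 partners and regulators of the synthases, 4 did so, 2 each way. Hsp90aa1, a chaperone that binds Nos3, differed by 1.06 ± 0.27 (adjusted p = 0.101, no overlap) and Nos1ap, an adaptor of Nos1, by -0.59 ± 0.17 (adjusted p = 0.113).

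Among 13 genes of cyclic GMP signalling, 6 reached the unadjusted level in Group M vs Group C, 1 higher and 5 lower. The lower ones include a gene well above background on 7 of the 12 arrays. Pde5a, which breaks down cyclic GMP, differed by -0.47 ± 0.17 (adjusted p = 0.147) and Vasp, a substrate of cyclic GMP-dependent kinase, by 0.47 ± 0.18 (adjusted p = 0.172). Of 8 genes of arginine and ornithine use, 3 did so, with Srm, the spermidine synthase, at 0.95 ± 0.27 and Gamt, of creatine synthesis, at -0.42 ± 0.18. Of 7 genes of arginine methylation and methylarginine breakdown, 3 did so, including a gene well above background on only 3 of the 12 arrays. Prmt6 was at 0.77 ± 0.20, and Prmt2, at 0.00, did not reach that level. Of 6 genes of nitrosothiol and superoxide handling, 2 did so, with Txnrd1 at 0.54 ± 0.19 and Adh5, which reduces S-nitrosoglutathione, at -0.61 ± 0.21.

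In Group D vs Group M, 5 of the 7 tetrahydrobiopterin genes reached the unadjusted level, against 21.6% of all probes, with Gchfr at 0.95 ± 0.26. The arginine transport list had 2 of 6, both lower, with Slc7a1 at -0.85 ± 0.31. Nags was at 0.58 ± 0.12 (adjusted p = 0.0809). With D12, Gchfr was at 0.63, Slc7a1 at -0.62 and Nags at 0.38, and none of these genes reached the unadjusted level. Hsp90aa1 was at -1.08 ± 0.29 and at -0.77 with D12, and Gamt at 0.80 ± 0.19 and at 0.61 with D12. With D12 in the fit, 7 of the 60 genes reached that level, against 12.2% of all probes.

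**Figure D4:**
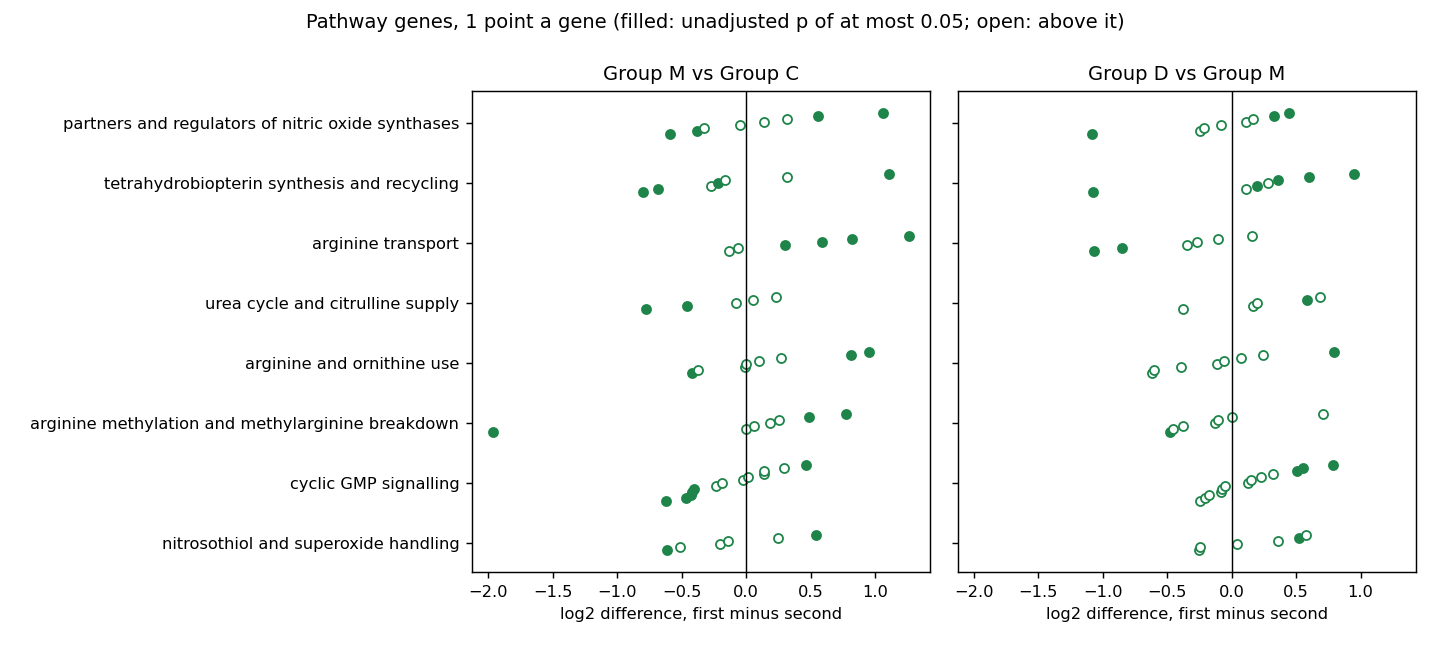
Log2 difference (horizontal axis) of each of the 60 pathway genes, 1 point a gene, by list, in Group M vs Group C (left) and Group D vs Group M (right), filled where the unadjusted p was at most 0.05. The arginine transport genes that are filled lie right of 0 in the left panel and left of 0 in the right panel.

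The genes most like each synthase and arginase were sought among 12335 named genes well above background on all 12 arrays, by Pearson correlation over the 12 arrays, which share slides and the immune marker pattern above. For Nos3 they were Csf1 (r = 0.989), the macrophage growth factor, Gtf2f2 (r = 0.988), a general transcription factor, and Tnfrsf1a (r = 0.983), a receptor of tumour necrosis factor. For Arg1 they were Abr (r = 0.978), Lims1 (r = 0.964) and Cast (r = 0.956), the calpain inhibitor. The highest values were lower for Nos2, with Leng8 at r = 0.866, Klrk1 at r = 0.866 and RGD1561563 at r = 0.833, and for Arg2, with Uxt at r = 0.899, Ap4m1 at r = 0.896 and Rnf31 at r = 0.856. With so many candidates, these are descriptions only. Nos1 was not compared.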

How the data were processed

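Colon RNA of 12 rats was hybridised to 1-colour Agilent arrays of 62976 spots, 4259 of them controls. The authors scanned and extracted the arrays with Feature Extraction 10.5.1.1 and deposited intensity values (background-subtracted, processed signals) per spot. They also deposited a matrix of log2 values, whose scaling and centring are not given in the sources used here. Probe positions are on rn4.

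Processed intensities were divided by each array's 75th percentile and taken to log2. Outlier spots (277 to 521 per array) were left out and spots of a probe averaged. Groups were compared in 1 model over 11 arrays with limma 3.58.1 in R 4.3.3, with Benjamini-Hochberg adjustment over 30367 probes and a threshold of 0.05. A gene was read by its probe of highest mean signal. The criterion of the methods required p of at most 0.05 in an analysis of variance and in Tukey's test, with a 2-fold difference. Single within-array differences had exact two-sided permutation tests. A probe was well above background on an array where at least 1 in 2 of its spots were marked so, and no spot was saturated. The code was tested on simulated data. The number of arrays limits the precision. Nothing given says which rats were littermates, so the p-values measure the spread between these rats.

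The members and lists were chosen with earlier results of these data known. The text names every member, the pathway genes of largest and smallest Group M vs Group C difference in each list among those well above background in Groups C and M, and for each marker list the gene of highest signal and any gene not well above background everywhere. A marker list and a pathway gene that this rule names are not reported here. Azin2, Adc and Cxcr2 had no matching probe name. Alternatives were all 12 arrays, other background correction and scaling, the authors' matrix, outlier spots kept, a filter on dim probes, a replicate block, array weights, 2 groups in the model, any probe of a gene, the criterion of the methods and leaving out each rat.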

Additional observations from a re-analysis of the deposited data

Results flagged for a closer look

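Over 10 genes and 3 groups, 30 sets of 4 rats were examined for a rat far from the rest, and 4 were found; chance flags about 1 in 20. Rat C1 read -6.76 for Nos1, above the other rats of Group C, at a level not well above background. Rat M8 read -4.94 for Nos2, above the other rats of Group M by a small margin. Rat C2 read -0.74 for Gucy1a3, below the other rats of Group C. Rat D12 read -3.64 for Gucy1b3, below the other rats of Group D. D12, which the study's analysis did not use, read above all rats of Group C for Nos3 (-2.11) and for Ass1 (-2.42). For Ass1 the margin was small, the highest rat of Group C being C4 at -2.45.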

How the results depend on the processing

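Nos3, Arg1, Gucy1a3 and Gucy1b3 kept their direction between Groups M and C and between Groups D and M under every alternative run. The count of the 10 genes past the adjusted test was 0 in both comparisons, against 0.204% and 0.171% of all probes. With array weights it was 4 in each, against 28.3% and 22.7% of all probes. Under the criterion of the methods it was 3 in each, against 2.31% and 2.66%. With normexp correction it was 1 in Group M vs Group C (Gucy1a3), against 0.537%. Leaving out each rat in turn gave 0 to 4 in each and 0 in Group D vs Group C. The 4 were without M6, against 16.2% and 14.8% of all probes. The count at an unadjusted p of at most 0.05 ranged from 3 to 6, from 4 to 6 and stayed at 0 when a rat was left out. The share of all probes then ranged from 15.4% to 31.7%, from 15.7% to 30.3% and from 4.05% to 6.99%. The count was 6 in Group M vs Group C with array weights, against 40.3% of all probes. In Group D vs Group C it was 1 with only those groups in the model, against 6.92%. The pathway count ranged from 18 to 34, from 8 to 28 and from 2 to 8 when a rat was left out. In Group D vs Group M it was 7 with all 12 arrays and 30 with array weights, against 12.2% and 36% of all probes. With the replicate block it was 8 in Group D vs Group M and 2 in Group D vs Group C, against 15.5% and 4.51%. The block changed no adjusted call of the 10 genes. Pairing of the rats by replicate number was not seen, which does not exclude it. Same-numbered rats, which lay at the same array column, had correlations from -0.56 to 0.38, with 3 of 12 pairs above 0.1. Of 12 rats, 3 correlated best with their own number. Gucy1a3 minus Gucy1b3 in Group D vs Group C, -0.13, ranged from -0.217 to 0.0250. Signs turned only for genes whose main difference was at most 0.32 in size, the largest being Arg2 in Group D vs Group C (-0.32). With array weights these were Nos2 (0.0591 in Group M vs Group C, -0.0197 in Group D vs Group M), Arg2 (-0.0557 in Group M vs Group C) and Ass1 (-0.226 and 0.192 in the same 2 comparisons). With the shift to the median they were Ass1 (-0.0199 and 0.0138) and Ddah1 (0.0142 in Group D vs Group C). With normexp they were Ass1 (-0.0195 in Group M vs Group C) and Ddah1 (0.0293 in Group D vs Group C), and with all 12 arrays Ass1 (0.0158 in Group D vs Group C). Leaving out a rat gave ranges in Group M vs Group C of -0.518 to 0.1003 for Nos1, -0.124 to 0.0394 for Nos2, -0.203 to 0.283 for Arg2 and -0.180 to 0.186 for Ass1. In Group D vs Group M they were -0.0350 to 0.258 for Nos2 and -0.236 to 0.129 for Ass1. In Group D vs Group C they were -0.0797 to 0.214 for Nos2, -0.0107 to 0.360 for Nos3, -0.546 to 0.0212 for Arg2, -0.180 to 0.0870 for Ddah1 and -0.0955 to 0.0109 for Ass1. The cause of these changes was not tested. No scaling moved the median of all probes by over 0.1. Nos1 is limited by its signal over background.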
